A study of Mus musculus with 36 samples.

Results

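The 10 genes described here act in the growth and remodelling of blood vessels: the ligands Vegfa, Pgf, Angpt2 and Apln, the receptors Kdr, Flt1 and Tek, the Notch ligand Dll4, and Esm1 and Plvap, which mark sprouting and fenestrated endothelium. They were taken by gene symbol, 10 of the 55487 genes in the count table, and each symbol matched 1 row. Esm1 was chosen by its different log2 fold change after crush in MON and UON, so its values in naïve, crushed and glaucoma nerve are given as a description without a test, and counts in those comparisons cover the other 9 genes.

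New vessels are led by tip cells, endothelial cells at the front of a sprout that follow a gradient of VEGF-A. VEGF-A (Vegfa) signals through VEGFR2 (Kdr). VEGFR1 (Flt1) binds VEGF-A and placental growth factor (Pgf) and, in a short secreted form, withholds VEGF-A from Kdr. Tip cells are known to present Dll4 to their neighbours and to express Apln, Angpt2 and Esm1, Tek (Tie2) is the receptor of the angiopoietins, and Plvap forms the diaphragms of fenestrated vessels, which the blood-brain barrier lacks.

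RNA-seq was measured in 36 libraries of C57BL/6 mice aged 2 to 4 months: 12 of the unmyelinated optic nerve next to the eye (UON), 12 of the myelinated optic nerve behind it (MON) and 12 of whole retina. Groups were naïve mice, mice 3 D or 2 W after a unilateral optic nerve crush made in the myelinated nerve, and mice 3 D, 2 W or 6 W after microbead injection, a model of raised eye pressure called glaucoma here. For every tissue and condition 1 library came from 2 females and 1 from 2 males (n = 2 pools, 24 mice in all), so pool and sex cannot be told apart. The same mice gave all 3 tissues, and the naïve pools served as controls for every time point. The tissue is bulk, so fewer cells of a type and less RNA per cell cannot be told apart.

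Libraries held 16158723 to 78054205 estimated counts, of which about 4 come from 1 read pair. Levels are CPM, counts scaled to the library total, after TMM scaling over all 36 libraries, and differences are log2 fold changes from edgeR's quasi-likelihood test, with standard error (SE) and p adjusted over all genes tested. Calls needed both an adjusted p below 0.05 and a change of more than 1 on the log2 scale. All 10 genes passed the filter on low counts in each of 40 comparisons. Of 18 endothelial markers, only Erg was at 0 anywhere, in 1 MON and 3 retina libraries, and the 18 summed to 167 to 369 FPKM in UON, 127 to 276 in MON and 65.4 to 122 in retina. The 8 photoreceptor markers summed to 2.76 to 116 FPKM in the nerve libraries against 22150 or more in retina, and 6 of 6 oligodendrocyte markers were lower in naïve UON than in MON.

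The promoters of the 3 genes that separated UON from MON are shown, since these genes differed in opposite directions between adjacent pieces of 1 nerve. Promoters of 8 of the 10 genes were found in RefSeq (GRCm38.p6), and the 250 bases before the start are printed 5′ to 3′ on the gene's strand. Capitals mark the core of the hypoxia response element (ACGTG or GCGTG) and an ETS core (AGGAAG), each searched on both strands.
Esm1 (chr13:113209409-113209658, plus strand): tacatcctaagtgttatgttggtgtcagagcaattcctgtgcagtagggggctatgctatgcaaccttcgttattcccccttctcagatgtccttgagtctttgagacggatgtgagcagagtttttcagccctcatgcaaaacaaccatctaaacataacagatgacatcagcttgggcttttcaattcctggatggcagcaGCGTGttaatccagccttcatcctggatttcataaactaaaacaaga
Vegfa (chr17:46032378-46032627, minus strand): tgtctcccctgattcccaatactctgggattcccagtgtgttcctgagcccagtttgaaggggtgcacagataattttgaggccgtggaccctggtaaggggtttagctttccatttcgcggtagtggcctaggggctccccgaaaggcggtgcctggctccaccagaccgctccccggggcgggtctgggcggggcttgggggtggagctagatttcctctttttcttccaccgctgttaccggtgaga
Apln (chrX:48034854-48035103, minus strand): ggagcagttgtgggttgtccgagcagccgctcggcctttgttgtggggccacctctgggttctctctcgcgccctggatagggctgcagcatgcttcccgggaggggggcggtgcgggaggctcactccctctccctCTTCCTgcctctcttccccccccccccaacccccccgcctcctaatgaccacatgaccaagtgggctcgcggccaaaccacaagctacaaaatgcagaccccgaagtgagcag
Esm1 held 1 hypoxia core, 47 bases before its start, and Apln held 1 ETS core on the opposite strand, 113 bases before its start. The Vegfa window held neither. A second RefSeq start of Vegfa has its window from 46025164 to 46025413 on the same strand, within the span of the gene (46016993 to 46032369). That window held 2 hypoxia cores, 218 and 211 bases before its start. Among 32851 promoter windows of the same length, 38.6% held a hypoxia core and 29.5% this ETS core, so the matches describe the sequences and set none of the genes apart.

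Esm1 (ENSMUSG00000042379, GRCm38 chromosome 13 from 113209659 to 113218098) encodes endocan, a secreted proteoglycan of endothelial tip cells. In naïve UON it had 287 CPM in the female pool and 256 in the male pool. In naïve MON it had 3.72 and 1.88 CPM. The pools of the 2 regions do not overlap, and UON stood 6.56 above MON on the log2 scale (SE 0.45), given without a test because these libraries entered the choice of Esm1, and 7.21 without the female naïve MON pool. In naïve retina it had 5 and 13 counts, about 1 to 3 read pairs, so its fold over retina is imprecise. UON stood 10.45 (SE 0.56) above retina on the log2 scale, and MON 3.90 (SE 0.51), also given without a test.

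After crush Esm1 was high in both MON pools at both times, with 91.4 and 41.8 CPM (female and male pool) at 3 D and 87.5 and 46.8 CPM at 2 W. All 4 crushed MON libraries lay above both naïve MON pools, and the log2 fold changes were 4.65 (SE 0.31) and 4.70 (SE 0.31). In crushed UON it had 546 and 183 CPM at 3 D and 1326 and 747 CPM at 2 W. At 3 D the UON pools lay on either side of the naïve ones, with a log2 fold change of 0.26 (SE 0.41) that was -0.30 without the female crush pool and -0.25 without the female naïve pool. At 2 W both lay above them, with 1.84 (SE 0.41), or 1.38 and 2.42 without the female and the male naïve pool. The response in MON exceeded that in UON by 4.37 on the log2 scale at 3 D and by 2.85 at 2 W, which are the values that chose the gene.

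Esm1 was also above naïve in all 6 glaucoma MON libraries. It had 60.8 and 19.9 CPM at 3 D, 27.2 and 13.8 CPM at 2 W and 7.76 and 8.13 CPM at 6 W, so in the female and in the male pools the level was lower at each later time. The log2 fold changes against naïve were 3.72 (SE 0.44), 2.88 (SE 0.43) and 1.59 (SE 0.42). The value at 6 W was 0.92 without its male and 2.18 without its female pool, and that at 3 D was 4.18 and 3.13. In glaucoma UON the 6 libraries ran from 203 to 582 CPM, against 287 and 256 CPM in naïve UON. All but the male 2 W pool lay above both naïve pools, with log2 fold changes of 0.77, 0.23 and 0.42 in order of time.

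Ordered by mean CPM, all 6 UON groups (272 to 1037) stood above all 6 MON groups (2.80 to 67.1), and all 6 retina groups stood below 0.34. The highest MON library, crush 3 D female at 91.4 CPM, was below the lowest UON library, crush 3 D male at 183 CPM. Crush 2 W led the UON groups. The other 5 UON groups overlapped with at least 1 neighbour in the order, as did MON crush 2 W, crush 3 D, glaucoma 3 D and glaucoma 2 W, while MON glaucoma 6 W and naïve MON did not overlap with any group. Retina libraries ranged from 0 to 35 counts, with 4 of 12 at 0, and no order can be read there.

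The level of Esm1 did not follow the other endothelial genes. Per length, Esm1 in naïve UON was 14.8 to 21.2 times Flt1 and 37.3 to 41.0 times Kdr (ratios of FPKM), whereas in naïve MON it was 0.160 to 0.258 times Flt1. None of the 18 endothelial markers was called between naïve UON and MON, and their median log2 fold change was 0.24 against -0.06 over all genes tested. Other cell lists held calls between these regions, where 9.63% of all genes were called. Some markers of barrier endothelium, mural cells, fibroblasts and astrocytes were called higher in UON. All 6 oligodendrocyte markers, a single photoreceptor marker of the 8 listed and a further mural marker were called lower. Photoreceptor markers summed to 18.02 and 7.414 FPKM in UON and to 41.13 and 6.556 in MON, so their sums overlap. Mural markers summed to 295.5 and 387.6 FPKM in UON and to 41.7 and 61.4 in MON. Fibroblast markers summed to 619 and 615 against 163 and 116. The part of these markers in the Esm1 level was not tested. By Pearson's r of log2 CPM over the 24 nerve libraries, the genes most like Esm1 among 13877 ranked were Tes (0.954), Loxl2 (0.954), Iqgap2 (0.944), Pdpn (0.937) and Hacd4 (0.936). The points share the gap between UON and MON, and within a region the coefficients were 0.831 to 0.916 over 12 MON libraries and 0.373 to 0.632 over 12 UON libraries. Of the other 9 members Vegfa had the highest coefficient over both regions, 0.402, but -0.637 within UON and -0.033 within MON, and Apln had -0.857 over both, -0.296 within UON and -0.677 within MON.

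**Figure D1:**
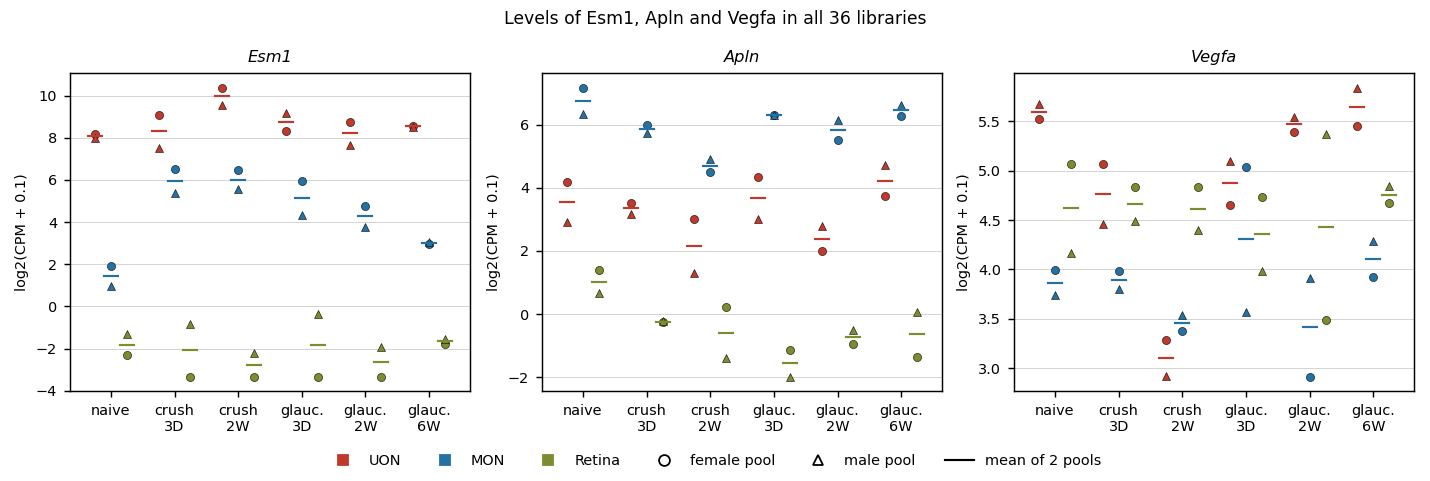
Level of Esm1, Apln and Vegfa in each library, as log2(CPM + 0.1) on the vertical axis against group on the horizontal axis, with 1 point per pool (circle female, triangle male) and a bar at the mean of 2 pools. Esm1 is highest in every UON group and goes from 2.80 to 66.6 CPM (means) in MON at 3 D after crush, Apln is highest in MON, and Vegfa in UON is lowest at 2 W after crush.

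Between naïve regions, Apln and Vegfa separated UON from MON in opposite directions. Of the 9 tested members, 2 were called, where 9.63% of all genes were. Apln (ENSMUSG00000037010, chromosome X from 48025146 to 48034853), the ligand of the receptor Aplnr, had 144 and 80.9 CPM in naïve MON, 18.2 and 7.44 CPM in UON and 2.52 and 1.48 CPM in retina. The 3 tissues do not overlap. The change of Apln from MON to UON was -3.23 on the log2 scale (SE 0.25, edgeR adjusted p = 0.00139), and it was higher than in retina by 2.65 (SE 0.26, adjusted p = 2.58e-04) in UON and by 5.88 (SE 0.29, adjusted p = 3.01e-05) in MON. These 3 calls were kept in 5 other settings and with each naïve library left out.

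Vegfa (ENSMUSG00000023951, chromosome 17 from 46016993 to 46032369), the main attractant of sprouts, had 45.7 and 51.1 CPM in naïve UON, 15.8 and 13.2 CPM in MON and 33.5 and 17.9 CPM in retina. Both UON pools lay above all other naïve pools. UON exceeded MON by a log2 fold change of 1.73 (SE 0.31, adjusted p = 0.0158), a call lost without the male UON pool (adjusted p = 0.062). UON over retina gave 1.01 (SE 0.30, adjusted p = 0.0384), which was called in 1 of 5 other settings, and MON against retina gave -0.72 (adjusted p = 0.12).

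Against retina, 5 of 9 members were called for UON and 4 of 9 for MON, where 31.7% and 27.6% of all genes were called. Angpt2, the ligand that loosens vessels by opposing Tek, had 21.8 and 42.3 CPM in naïve UON, 24.5 and 14.6 in MON and 4.54 and 3.44 in retina. It was higher in UON by 3.05 (SE 0.45, adjusted p = 0.00184) and in MON by 2.35 (SE 0.43, adjusted p = 0.00581) on the log2 scale. Its receptor Tek moved alike, with 15.7 and 26.8 CPM in UON, 17.6 and 10.7 in MON and 3.54 and 3.85 in retina. Its log2 fold changes over retina were 2.55 (SE 0.41, adjusted p = 0.00289) and 2.01 (SE 0.41, adjusted p = 0.00897), the latter 1.41 with an adjusted p of 0.0588 without the female MON pool. Both ligand and receptor were higher in the direction of the endothelial markers, of which 12 of 18 were called higher in UON than in retina and 11 in MON, with medians of 1.96 and 1.73.

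Kdr went against those markers. It had 77.8 and 81.2 CPM in naïve retina, 19.3 and 18.2 in UON and 17.3 and 7.77 in MON, and was lower than in retina by a log2 fold change of -2.05 (SE 0.32, adjusted p = 0.00228) in UON and -2.66 (SE 0.33, adjusted p = 9.03e-04) in MON. Flt1 had 61.7 and 63.4 CPM in retina, 40.4 and 52.1 in UON and 43.2 and 37.0 in MON, and was not called (MON over retina -0.57, adjusted p = 0.0903). The other members not called between UON and MON had log2 fold changes from -1.19 (Plvap, adjusted p = 0.157) to 0.70 (Angpt2, adjusted p = 0.375). Dll4, at 0.471 to 2.74 CPM, and Pgf, at 0.859 to 3.40 CPM, were low in every naïve library. Their SEs of 0.75 to 0.92 allow large differences to pass unseen.

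**Figure D2:**
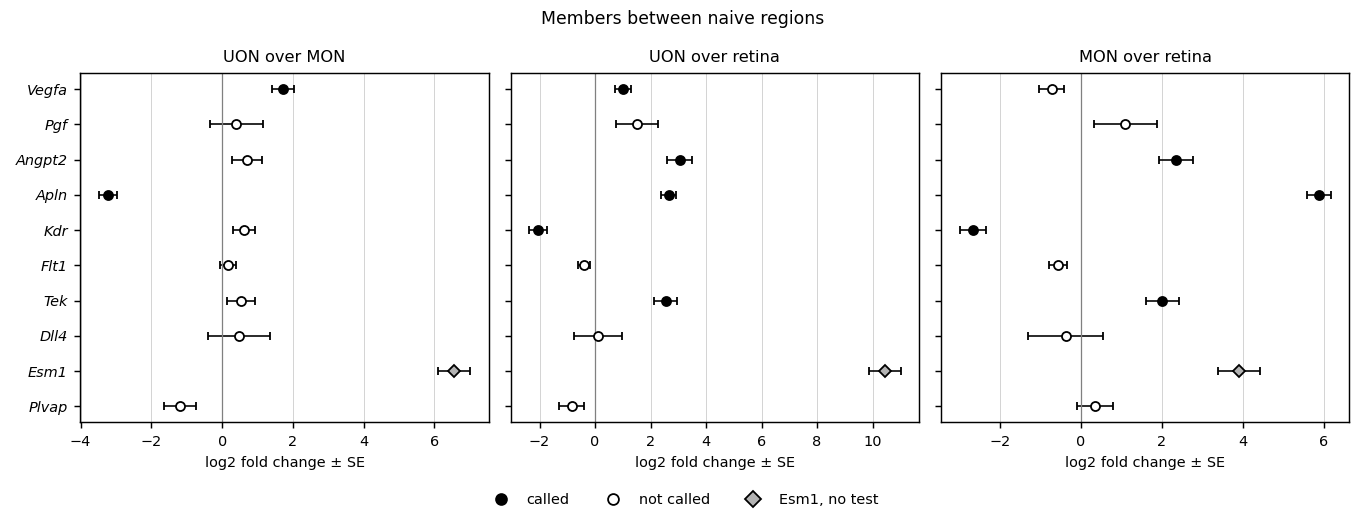
Log2 fold change (horizontal axis, ± SE) of each member between naïve regions, with filled points called, open points not called and grey diamonds for Esm1, which was not tested here. Apln lies at -3.23 and Vegfa at 1.73 for UON over MON, and Kdr lies below 0 against retina in both nerve regions while Angpt2, Apln, Tek and Esm1 lie above it.

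The order of the 2 VEGF receptors differed between nerve and retina. The FPKM ratio of Flt1 to Kdr was 1.10 to 4.62 in the 12 UON libraries, 1.06 to 4.28 in the 12 MON libraries and 0.469 to 0.759 in the 12 retina libraries, so every nerve library held more Flt1 per length and every retina library more Kdr. Within the same pools the ratio was higher in UON than in retina by 1.81 ± 0.71 on the log2 scale and in MON by 1.71 ± 0.62 (SD, n = 12 pools), in 12 of 12 pools for each. Two-sided exact permutation tests over the signs of the 12 differences gave p = 0.000488 for both, the smallest they can give, and 0.000732 after Benjamini-Hochberg adjustment over 3 comparisons. UON and MON differed by 0.10 ± 0.64 (p = 0.586 by the same exact test). This ratio was singled out after its values were seen, and the 12 pools span all conditions.

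The short, secreted form of Flt1 made up most of its RNA, and more so in nerve. In the transcript counts, Flt1-203 (ENSMUST00000110529, chromosome 5 from 147635159 to 147725988, 6292 bases, 688 coding residues) ends before the exons of the kinase domain that Flt1-202 (ENSMUST00000031653, from 147561604 to 147726011, 6895 bases, 1333 residues) carries. As counts per transcript length, the short form was 59.3 to 94.1% of both in UON (median 79.4%), 48.2 to 86.0% in MON (median 81.3%) and 58.7 to 72.4% in retina (median 67.6%). The ranges overlap, and the lowest share was that of the male naïve MON pool. Within pools the share was higher in UON than in retina by 12.5 ± 12.3 percentage points (10 of 12 pools, exact permutation p = 0.00732, adjusted 0.0154) and in MON by 12.2 ± 12.1 points (11 of 12 pools, exact permutation p = 0.0103, adjusted 0.0154), SD over n = 12 pools. UON and MON differed by 0.276 ± 14.2 points (exact permutation p = 0.947). The split between forms that share most of their exons is an estimate of the assembler, its counting error is not known, and this pattern too was chosen after seeing the values.

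**Figure D3:**
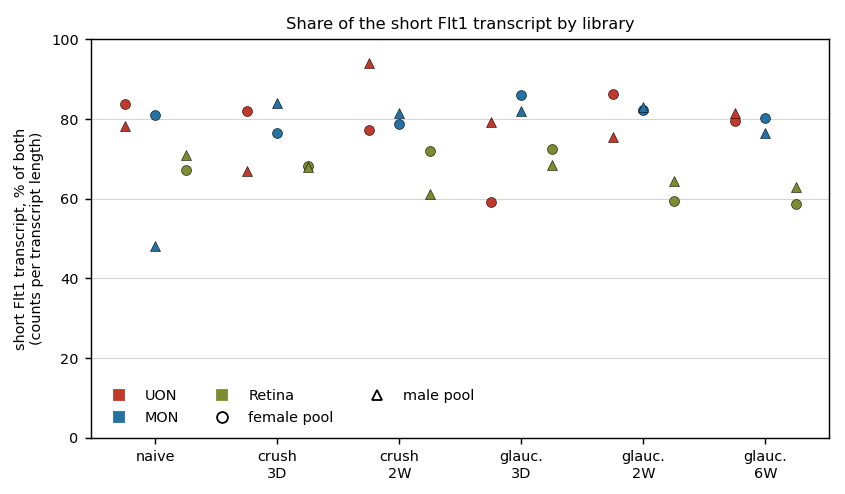
Share of the short Flt1 transcript among both forms in each library (vertical axis, % of counts per transcript length) by group (horizontal axis), coloured by tissue with circles for female and triangles for male pools. Retina points lie between 58.7 and 72.4%, and most nerve points lie above them.

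After crush, 1 of 36 tests of a member in UON or MON was called, Apln in MON at 2 W, where 2.72% of all genes were called (4.26% in MON at 3 D, 0.0% in UON at 3 D and 0.0281% in UON at 2 W). At an unadjusted p under 0.05 there were 7 of 36, and DESeq2 called 3, Vegfa in UON at 2 W and Plvap at 3 D and Apln at 2 W in MON, where it called 2.53%, 12% and 8.25% of all genes. Apln in MON had 63.4 and 52.8 CPM at 3 D and 22.4 and 30.2 CPM at 2 W, below the naïve 144 and 80.9 CPM in all 4 libraries. Oligodendrocyte markers, which are high in MON and low in UON as Apln is, moved with it: 6 of them summed to 17820 and 13950 FPKM in naïve MON, 11800 and 8605 at 3 D and 5697 and 6548 at 2 W, with 0 called at 3 D and 1 lower at 2 W, and their part in the Apln level was not tested. The log2 fold change was -0.82 (SE 0.33, adjusted p = 0.205) at 3 D and -1.94 (SE 0.34, adjusted p = 0.0367) at 2 W. The 2 W call was lost with all 36 libraries in 1 fit (adjusted p = 0.0895) and without the female (0.194) or the male (0.0766) naïve MON pool.

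Plvap, the diaphragm protein, was highest of all 36 libraries in MON at 3 D after crush, with 32.9 and 36.6 CPM against 7.22 and 14.7 CPM in naïve MON and 12.4 and 7.36 CPM at 2 W. The 3 D pools lay above both other groups. The log2 fold change was 1.77 (SE 0.47, adjusted p = 0.0865) at 3 D and -1.80 (SE 0.47, adjusted p = 0.183) from 3 D to 2 W, neither of them called. At 3 D it was called without either crush 2 W pool or the female crush 3 D pool (8.74e-05 to 0.0225), and from 3 D to 2 W without the female crush 2 W pool (3.35e-04), while DESeq2 gave 0.00642 and 0.0094 and edgeR without the filter on low counts gave 8.93e-04 and 0.00191. Kdr, with 25.7 and 31.7 CPM at 3 D against 17.3 and 7.77 CPM in naïve MON, had 1.26 (SE 0.55, adjusted p = 0.247), or 0.016 and 0.00581 without the male and the female crush 2 W pool. Dll4 went from 4.40 and 4.15 CPM at 3 D to 0.475 and 0.677 CPM at 2 W without a call, with -2.80 (SE 0.88, adjusted p = 0.256). The 18 endothelial markers in MON had a median of 0.81 at 3 D and -0.39 at 2 W with none called, where 4.26% and 2.72% of all genes were. They summed to 262 and 276 FPKM at 3 D against 162 and 138 in naïve MON.

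Vegfa in UON at 2 W after crush had 9.66 and 7.50 CPM, the lowest of the 12 UON libraries, against 45.7 and 51.1 CPM in naïve UON and 33.5 and 21.9 CPM at 3 D. The log2 fold change was -2.51 (SE 0.37). Its edgeR adjusted p was 0.171, so it was not called, whereas DESeq2 gave 3.25e-06, the fit without a filter 0.0389 and the fit of all 36 libraries 0.015. In MON the 4 crushed libraries had 10.3 to 15.8 CPM, near the naïve 15.8 and 13.2. The difference in response between MON and UON at 2 W was 2.19 (SE 0.45, adjusted p = 0.146; DESeq2 0.00132). Against glaucoma UON at 2 W (42.0 and 46.7 CPM) the difference was -2.38 (SE 0.34, adjusted p = 0.0626), called in 5 of 5 other settings. Markers of other cells also differed in this group, those of oligodendrocytes in the male pool alone. The 5 blood markers summed to 6337 and 4614 FPKM in UON at 2 W after crush and to 298 and 660 in naïve UON. The 10 myeloid markers summed to 992 and 3096 FPKM against 251 and 249, and the 6 oligodendrocyte markers to 2670 and 472 against 2600 and 1927. None of these markers was called, where 0.0281% of all genes were, and their part in the Vegfa level was not tested. Kdr was also low there (8.64 and 8.68 CPM against 19.3 and 18.2), with -1.10 (SE 0.42, adjusted p = 0.52).

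**Figure D4:**
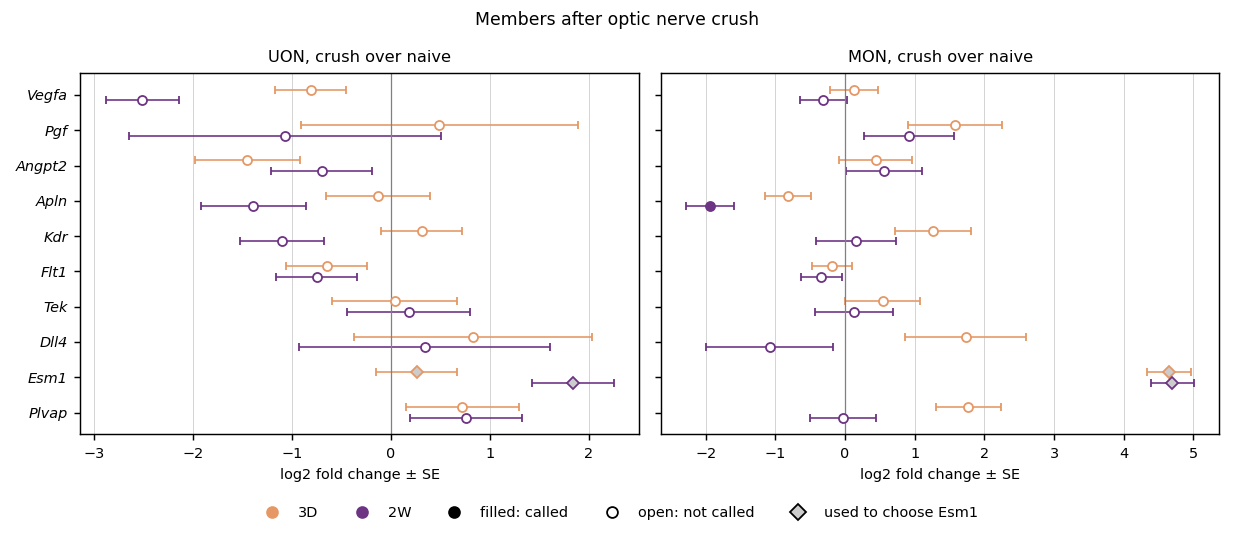
Log2 fold change (horizontal axis, ± SE) of each member after crush against naïve in UON (left) and MON (right), at 3 D (orange) and 2 W (purple). Filled points were called, open points were not, and diamonds are the Esm1 values that chose it. Apln at 2 W in MON (-1.94) is the called point, Vegfa at 2 W in UON lies at -2.51, and Esm1 in MON lies at 4.65 and 4.70.

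In the other comparisons of nerve no member was called. In glaucoma UON and MON 0 of 54 tests passed (0.0% of all genes in each of 6 comparisons), with 3 at an unadjusted p under 0.05 in edgeR and 0 calls in DESeq2, which called 0.134 to 2.32% of all genes there. The response to injury differed between MON and UON for 0 of 45 tests of the 9 members (0.012% of all genes for crush at 3 D and 0.0% for the other 4), with 5 at an unadjusted p under 0.05 and 1 call in DESeq2, the Vegfa difference at 2 W (2.93% of all genes). Between MON and retina 0 of 45 passed (0.882% and 0.622% of all genes for crush at 3 D and 2 W and 0.0% for glaucoma), with 5 at an unadjusted p under 0.05 and 1 call in DESeq2, Plvap for crush at 3 D (7.53% of all genes). Between crush and glaucoma at the same time 0 of 56 passed, where 0.0% of all genes did in UON at 3 D and 0.0418% at 2 W, 0.0162% and 0.0485% in MON and 0.0081% and 0.113% in retina, with 5 at an unadjusted p under 0.05. DESeq2 called 2, Vegfa in UON and Apln in MON at 2 W (2.36% and 1.86% of all genes). Between the late and early time of an injury 0 of 56 passed, where 0.00468%, 0.075% and 0.0485% of all genes did after crush in UON, MON and retina and 0.0%, 0.0% and 0.0129% in glaucoma, with 10 at an unadjusted p under 0.05. DESeq2 called 3 after crush, Vegfa in UON (1.81% of all genes) and Apln and Plvap in MON (5.45%). All comparisons with naïve share the same 2 naïve pools of a tissue.

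In retina no member was called after crush (0 of 20 tests, where 0.0221% of all genes were called at 3 D and 0.313% at 2 W) or in glaucoma (0 of 30, where 0.00429%, 0.0% and 0.00858% were), with 4 and 5 at an unadjusted p under 0.05 in edgeR and 0 calls in DESeq2, which called 0.649 to 1.55% and 0.449 to 0.76% of all genes. The injured libraries of 2 members lay wholly outside the naïve ones. Apln had 2.52 and 1.48 CPM in naïve retina and 0.154 to 1.06 CPM in the 10 injured libraries, 8 to 64 counts each. Its log2 fold changes were -1.30 and -1.75 after crush and -3.0, -1.99 and -1.70 in glaucoma, with adjusted p from 0.445 to 0.865. Tek had 3.54 and 3.85 CPM in naïve retina and 4.14 to 7.74 CPM in the 10 injured libraries, with log2 fold changes from 0.28 to 0.94 and adjusted p from 0.716 to 0.902. Of all genes tested, 1.53% lay below both naïve pools in all 10 injured libraries and 2.17% above, 3.7% either way, against 1 of 10 members each way, and the pattern was noticed after the values were seen.

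**Figure D5:**
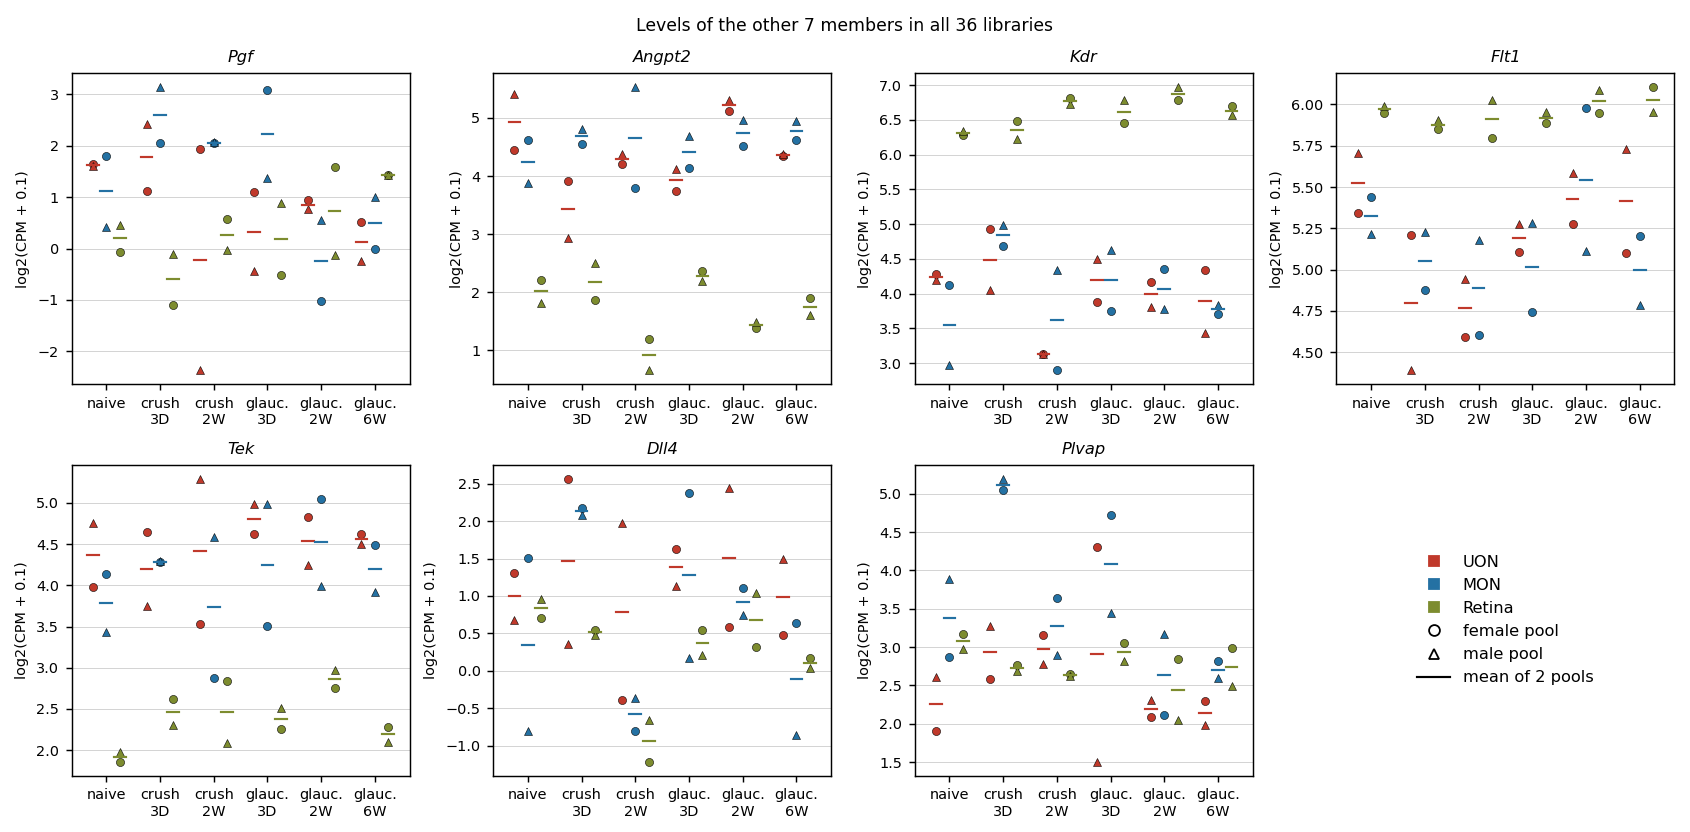
Level of the 7 remaining members in each library, as log2(CPM + 0.1) on the vertical axis against group on the horizontal axis, coloured by tissue, with circles for female pools, triangles for male pools and bars at the mean of 2 pools. Kdr is higher in all 12 retina libraries (74.7 to 125 CPM) than in any nerve library (7.36 to 31.7 CPM), Angpt2 and Tek are lower in retina, and Plvap is highest in MON at 3 D after crush.

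Among 36 partner genes of these pathways, 6 were called higher and 3 lower in naïve UON than in MON, where 9.63% of all genes were called. The largest change among those called higher was that of Adm, which encodes the vasodilator adrenomedullin, with a log2 fold change of 2.50 (SE 0.32, adjusted p = 0.00455). Among those called lower it was that of Apela, the second ligand of Aplnr. Apela had 0 counts in both UON pools and 23 and 4 in MON (under 0.37 CPM), at about 4 counts a read pair. Its call rests on few reads, so no fold is given. The median of the list was 0.67 against -0.06 over all genes. Over retina, 24 were higher and 5 lower in UON (median 2.53) and 17 were higher and 3 lower in MON (median 1.95), where 31.7% and 27.6% of all genes were called. Angpt1, the agonist of Tek, had the largest positive change, with 6.25 (adjusted p = 1.59e-04) in UON and 4.76 (adjusted p = 5.08e-04) in MON. Among those called lower in UON the largest change was again that of Apela, which had 9.07 and 11.05 CPM in naïve retina. In MON it was that of Ramp3, a partner of the adrenomedullin receptor, with -6.40 (adjusted p = 3.33e-04).

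In MON after crush 5 of 34 tested partners rose at 3 D and none fell, with a median of 0.18, and at 2 W 2 rose and 1 fell, with a median of 0.42, where 4.26% and 2.72% of all genes were called. Aplnr, the gene of the Apln receptor, had 21.1 and 26.3 CPM at 3 D against 2.42 and 0.471 CPM in naïve MON, a log2 fold change of 4.24 (SE 0.68, adjusted p = 0.0204), and 3.62 and 4.06 CPM at 2 W. Its call was lost with all 36 libraries in 1 fit (0.0675) and without the female or the male naïve MON pool (0.0603 and 0.0551, with log2 fold changes of 5.78 and 3.31). Nid2, a basement membrane gene, rose most at 2 W, by 2.61 (SE 0.31, adjusted p = 0.0157), and the guidance receptor Unc5b fell by 1.86 on the log2 scale (SE 0.31, adjusted p = 0.0347), each lost without either naïve MON pool (adjusted p from 0.0789 to 0.159), and Unc5b also with all 36 libraries in 1 fit (0.0586). Nrp1, the co-receptor of VEGF-A, rose at both times and is named after its values were seen. Its levels were 69.7 and 145 CPM at 3 D and 124 and 95.2 CPM at 2 W against 29.4 and 20.6 CPM in naïve MON, with log2 fold changes of 2.18 and 2.23 (adjusted p = 0.0293 and 0.0377), both lost without either naïve MON pool (0.113 to 0.206) and at 3 D also without the male crush pool (0.0659, log2 fold change 1.41). No partner was called in UON after crush (medians -0.15 and -0.33), where 0.0% and 0.0281% of all genes were at 3 D and 2 W. None was called in glaucoma in UON or MON, where 0.0% of all genes were in each of 6 comparisons.

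Of 17 hypoxia targets, which share with Vegfa the control by HIF, 3 were higher and 1 lower in naïve UON than in MON (median 0.77; 9.63% of all genes were called). P4ha1, a collagen hydroxylase, led with 1.74 (SE 0.22, adjusted p = 0.00435), and the oxygen sensor Egln1 was lower with -1.21 (SE 0.28, adjusted p = 0.0377), a call lost with all 36 libraries in 1 fit (0.0659) and without the male UON (0.13) or the male MON pool (0.146). In MON at 3 D after crush Hk2, the first enzyme of glycolysis, rose by 1.49 (SE 0.25, adjusted p = 0.0245) and Mxi1 fell by 1.47 on the log2 scale (adjusted p = 0.0403), 2 called higher and 1 lower in all (median 0.21; 4.26% of all genes). Without either naïve MON pool both were lost (0.127 to 0.214), and Mxi1 also without the male crush pool (0.143). At 2 W none was called, where 2.72% of all genes were. In UON at 2 W none was called either, where 0.0281% of all genes were. There the median of the list was -0.15 against -0.09 over all genes. The part of HIF in the Vegfa level was not tested. Of 10 proliferation genes all 10 rose in MON at 3 D, where 4.26% of all genes were called (median 5.67, Ccnb2 leading with 6.53, adjusted p = 0.016, with the male naïve pool at 0 counts) and 5 rose at 2 W, where 2.72% were called (median 2.69, Cdk1 with 3.07, adjusted p = 0.0291, lost with all 36 libraries in 1 fit at 0.173 and without either naïve MON pool at 0.108 and 0.122). Cenpf was the only one called between naïve UON and MON, with 2.21 (adjusted p = 0.0352), lost without any 1 of the 4 naïve nerve pools (0.0731 to 0.154).

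Markers of other cells changed in the same MON libraries as Esm1, Plvap and Aplnr. Of 10 myeloid markers 7 were called higher at 3 D and 6 at 2 W, where 4.26% and 2.72% of all genes were called. They summed to 3058 and 5655 FPKM at 3 D and to 6349 and 1835 at 2 W against 185 and 223 in naïve MON. Of 11 mural cell markers 1, Acta2, rose at 3 D, with a median of 0.40, and their sum was 125 and 107 FPKM against 41.7 and 61.4 in naïve MON. Of 10 barrier endothelium markers, the transporter gene Mfsd2a alone was called, lower at 3 D, and all 10 had a log2 fold change below 0 (median -0.50). Their part in the member levels was not tested.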

How the data were processed

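Bulk RNA-seq of UON, MON and retina was analysed from the deposited tables. Per the study's methods, reads were mapped by the authors (HISAT2 2.2.1, build GRCm38), who quantified Gencode genes with StringTie 1.3.0 and wrote estimated counts from coverage and length; the FPKM values deposited by the authors come from the same program and are relative to gene length and library size. Strand use in counting is not given in the sources used here, so reads of overlapping antisense genes cannot be told apart. Because counts derive from coverage, about 4 counts equal 1 read pair, and counting error is larger than the totals imply.

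Genes were filtered with filterByExpr (minimum count 10, minimum total 15), scaled by TMM and tested with edgeR 4.0.16 (quasi-likelihood, R 4.3.3) over all genes with group and sex as terms, on the libraries of the comparison, with Benjamini-Hochberg adjustment. The study used DESeq2, run here (1.42.0) as an alternative. Other settings were DESeq2 size factors, no filter, no sex term, all 36 libraries in 1 fit, no fold limit and each library left out. The pipeline was run on simulated counts with less spread between libraries than these data have, so that run does not measure power here. Levels across tissues are CPM, and genes were compared with each other only by FPKM. The members and lists were chosen with earlier results of these data known. Named were the 10 members, the called gene of each list with the largest change in each direction (none from cell type markers by rule), and the 5 genes most correlated with Esm1. Acta2, Mfsd2a, Nrp1 and the Flt1 patterns were named after their values were seen. Each value of n is a pool of mice, and edgeR p-values rest on the spread between pools left after group and sex are fitted. Tests of a difference in response between tissues took the tissues of a pool as independent, except in the block setting below. MON and UON or retina of a pool come from the same mice, per the study; female minus male differences correlated at -0.02 to 0.28 (MON and UON) and -0.01 to 0.04 (MON and retina) over 13872 genes.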

Additional observations from a re-analysis of the deposited data

How the results depend on the processing

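Esm1 over retina is left out here, as it is given above without a test. Between naïve regions the calls of Apln, Angpt2, Tek and Kdr held in 5 of 5 other settings. Vegfa held in 5 of 5 for UON over MON, and in 1 of 5 for UON over retina. Over these settings and with each library left out, its log2 fold changes ran from 1.38 to 2.05 and from 0.58 to 1.47. Those of Tek in MON over retina ran from 1.41 to 2.53. With all 36 libraries in 1 fit, the call after crush was of another gene than in the main setting. There Apln in MON at 2 W was lost (log2 fold change -1.99, edgeR adjusted p = 0.0895). Vegfa in UON at 2 W was called instead (log2 fold change -2.48, edgeR adjusted p = 0.015). After crush in UON and MON the count of 1 became 3 with DESeq2 and 3 without the filter on low counts, 1 in the other settings, and 0 to 4 with each library left out: it was 0 without either naïve MON pool, 3 and 4 without the male and the female crush 2 W MON pool, and 2 without the female crush 3 D MON pool. For the difference in response between MON and UON it became 1 with DESeq2 and 1 without the filter (0 to 2 with libraries left out, 2 without the female crush 2 W UON pool), and between MON and retina 1 and 1 (0 with each library left out). Between crush and glaucoma it became 2 with DESeq2 and 1 with DESeq2 size factors, without the filter, without the sex term and with all 36 libraries (0 to 1 with libraries left out, Vegfa in UON). Between late and early times it became 3 with DESeq2 and 1 without the filter (0 to 2 with libraries left out). Crush and glaucoma retina and glaucoma nerve stayed at 0 in all settings. The cause was not tested.

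With the animal pool as a replicate block, which pairs the tissues of the same mice, 0 members differed in response between MON and UON and 0 between MON and retina, as without it. The block was fitted for these comparisons alone. Without the sex term the call of Vegfa in naïve UON over retina was lost (log2 fold change 0.95, edgeR adjusted p = 0.0507).

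Directions turned for Esm1 in UON at 3 D after crush (0.26; -0.30 without the female crush pool, -0.25 without the female naïve pool, up to 0.79), for Angpt2 between naïve UON and MON (0.70; -0.07 to 1.39, lowest without the male UON pool), and for the share of the short Flt1 form between UON and MON (0.276 points; -2.42 to 2.73 with 1 pool left out, below 0 in 5 of 12). With 2 pools a group, and Dll4, Pgf and retinal Esm1 at low counts, moderate changes were not detectable.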
